A study of Mus musculus with 12 samples.

Results

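The genes described here are 31 genes of cholesterol and fatty acid synthesis, measured in mouse embryonic fibroblasts (MEFs), connective tissue cells grown from embryos, that carried different doses of Sirt1. Members were taken by gene name from the non-control probes of the arrays. All 31 names were present, on 62 of 41174 probes with 1 to 4 probes per gene, among 27670 named features in all. RNA was profiled on 12 one-colour Agilent whole-genome arrays. There were 4 arrays of SIRT1 knockout cells (KO, replicates 2, 3, 4 and 5), 4 of SIRT1 heterozygous cells (Het, replicates 2, 3, 4 and 5) and 4 of wild-type cells (WT, replicates 1, 2, 3 and 5). SIRT1 is an NAD-dependent protein deacetylase. The labels call every culture female, give neither the age of the embryos nor the design of the Sirt1 allele, and state no treatment. The cells of the 3 genotypes were grown alike, in DMEM that held 10% fetal bovine serum, 4 mM glutamine and 25 mM glucose, and harvested in logarithmic growth. Serum is itself a source of sterols and fatty acids. Nothing in the labels says that replicates came from separate embryos or cultures, so the p-values measure only how far these samples spread, and that spread may be technical.

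Cells build cholesterol from acetyl-CoA through the mevalonate pathway, and fatty acids from malonyl-CoA. The transcription factors SREBP-1 and SREBP-2 turn on most enzymes of both routes. When membrane sterol is low, the escort protein SCAP carries the SREBP precursor to the Golgi, where it is cut and released to the nucleus. When sterol is high, the INSIG proteins hold SCAP in the endoplasmic reticulum. SIRT1 is known to deacetylate SREBP proteins in liver cells. The series asks how Sirt1 dose bears on proliferation and metabolism.

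Promoter letters of the genes were compared with those of all RefSeq genes. RefSeq (GRCm38.p6) promoters were at hand for 24 of the 31 genes, and the 250 bases before each start were searched on both strands. The core of the sterol regulatory element, TCACNCCAC, was found in 1 of the 24 genes, Hmgcs1, and in 1.22% of 27025 genes. Only exact matches in this window were counted. An element with other letters or further away would be missed, so the other genes may still hold one. The CCAAT box, bound by NF-Y, a cofactor of SREBP, was found in 19 of the 24 (79.2%), against 37.5% of all genes. The GC box GGGCGG, bound by Sp1, was found in 18 of the 24 (75%), against 35.4% of all genes. All genes include those not expressed in these cells. The shares among the tested features alone were not computed, so these counts cannot be read as particular to the 31 genes. Matches were counted for each motif separately, and a window may hold overlapping matches of different motifs. A match describes letters and not a bound site. The following 4 promoters belong to the gene with the TCACNCCAC match, the gene nearest to a genotype call, the gene with the largest shift shared by one set of arrays, and an SREBP feedback gene. Capitals mark TCACNCCAC and CCAAT on either strand, so ATTGG is a CCAAT box read from the other strand.
Hmgcs1, chr13:119690101-119690350, plus strand: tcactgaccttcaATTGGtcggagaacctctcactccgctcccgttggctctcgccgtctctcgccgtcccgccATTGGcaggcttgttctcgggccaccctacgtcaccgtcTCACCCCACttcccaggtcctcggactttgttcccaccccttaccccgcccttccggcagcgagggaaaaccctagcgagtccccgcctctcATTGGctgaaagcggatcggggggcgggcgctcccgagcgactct
Mvd, chr8:122443423-122443672, minus strand: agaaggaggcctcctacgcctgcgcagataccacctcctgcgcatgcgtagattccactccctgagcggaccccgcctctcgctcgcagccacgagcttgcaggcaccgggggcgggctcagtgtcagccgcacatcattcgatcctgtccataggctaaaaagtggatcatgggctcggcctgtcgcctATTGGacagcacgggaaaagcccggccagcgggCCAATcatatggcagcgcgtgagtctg
Tm7sf2, chr19:6067851-6068100, minus strand: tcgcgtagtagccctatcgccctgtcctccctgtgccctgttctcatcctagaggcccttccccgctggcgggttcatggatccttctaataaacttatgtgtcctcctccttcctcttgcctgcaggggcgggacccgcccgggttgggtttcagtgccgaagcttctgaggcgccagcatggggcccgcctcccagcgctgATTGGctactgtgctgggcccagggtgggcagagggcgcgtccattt
Insig1, chr5:28071162-28071411, plus strand: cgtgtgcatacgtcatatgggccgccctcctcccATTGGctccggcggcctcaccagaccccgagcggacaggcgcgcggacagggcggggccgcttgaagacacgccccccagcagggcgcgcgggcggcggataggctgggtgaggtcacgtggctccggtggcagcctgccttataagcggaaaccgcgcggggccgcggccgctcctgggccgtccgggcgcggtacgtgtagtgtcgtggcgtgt
The Hmgcs1 promoter held 1 TCACNCCAC match and 3 CCAAT boxes. The Mvd promoter held 2 CCAAT boxes, and those of Tm7sf2 and Insig1 held 1 each.

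Levels are log2 processed signals minus the 75th percentile of the array, so that a level of 0 equals that percentile and negative levels lie below it. A mean carries its SD (n = 4 arrays), and a difference is one of log2 levels, with its standard error (SE). A feature was tested if it stood well above background on all arrays of at least 1 genotype. This held for 16845 features and for all 31 genes, each of which was well above background and unsaturated on all 12 arrays. Each gene is represented by its brightest probe, and levels are not compared between genes. In bulk RNA, fewer cells of a type and less RNA per cell cannot be told apart.

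The targeted gene and the labels were checked first. Sirt1 was read by 2 probes. At the probe at chr10:62838289-62838348 (build mm7) it averaged −0.47 ± 0.29 in KO, 0.37 ± 0.03 in Het and 0.36 ± 0.21 in WT cells, a KO minus WT difference of −0.83 (SE 0.17, limma adjusted p = 0.0361). At the other probe, at chr10:62855795-62855854, the KO minus WT difference was 0.02 (SE 0.24, limma adjusted p = 0.982). Whether either probe lies in the deleted part is not given in the sources used here. WT replicate 3 went against its female label: Xist stood at −2.94 there, against 1.66 to 3.42 on the other 11 arrays, and the Y-linked gene Ddx3y at 1.04, against −10.16 to −4.35. The highest Ddx3y levels of those 11 arrays were −4.35 in Het replicate 3 and −5.28 in KO replicate 3, next to −7.04 in KO replicate 4. Xist stood at 1.66 in Het replicate 3, the lowest of the 11, and at 3.19 in KO replicate 3. The arrays numbered 3 stood apart in every genotype. Across all tested features, their correlations with the other arrays of the same genotype were 0.925 to 0.969, against 0.970 to 0.998 among the other arrays. Results are therefore given with and without them. The arrays lay on 4 slides, and 76.9% to 77.8% of the probes were well above background on slide 4 and 59.7% to 64.8% elsewhere. Fibroblast markers were well above background on all arrays for 10 of 10 genes, with a summed linear signal, in units of the array's 75th percentile, of 530 to 646 in KO, 684 to 874 in Het and 548 to 724 in WT cells. Among the other cell types, 3 of 10 adipocyte, 2 of 6 hepatocyte, 2 of 8 macrophage, 3 of 7 epithelial or mesothelial, 3 of 5 smooth muscle and 2 of 5 endothelial markers were well above background on all arrays.

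None of the 31 genes passed the test between any pair of genotypes. The fit was limma on all 12 arrays with Benjamini-Hochberg adjustment over 16845 features, called at an adjusted p under 0.05. The count was 0 of 31 for KO against WT, where 1.64% of all features were called. It was 0 of 31 for Het against WT (1.18% of all features) and 0 of 31 for KO against Het (0.997% of all features). At an unadjusted p under 0.05 the counts were 1 gene for KO against WT (16.5% of all features), 3 for Het against WT (16.3%) and 2 for KO against Het (11.2%). The standard errors of the 31 genes lay between 0.13 and 0.49, with a median of 0.22. Differences of that size, and larger ones, could not be told from 0 on these arrays. In simulated levels with the spread of the tested features, 0 of 50 features changed by 0.5 in KO cells were called against WT. Of 50 changed by 1, 23 were called, and of 50 changed by 2, 40 were. A gene without a call may thus still differ. In KO cells 12 genes had a higher and 19 a lower mean than in WT cells, with a median difference of −0.12, against 0.08 over all features. In Het cells 17 were higher and 14 lower than in WT cells, with a median of 0.03, against 0.08 over all features. In KO cells 8 were higher and 23 lower than in Het cells, with a median of −0.14, against −0.02 over all features. Within slide 1, which held KO replicate 3 and Het replicates 3 and 4, this last median was 0.10, and within slides 3 and 4 it was −0.25 and −0.11.

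**Figure D1:**
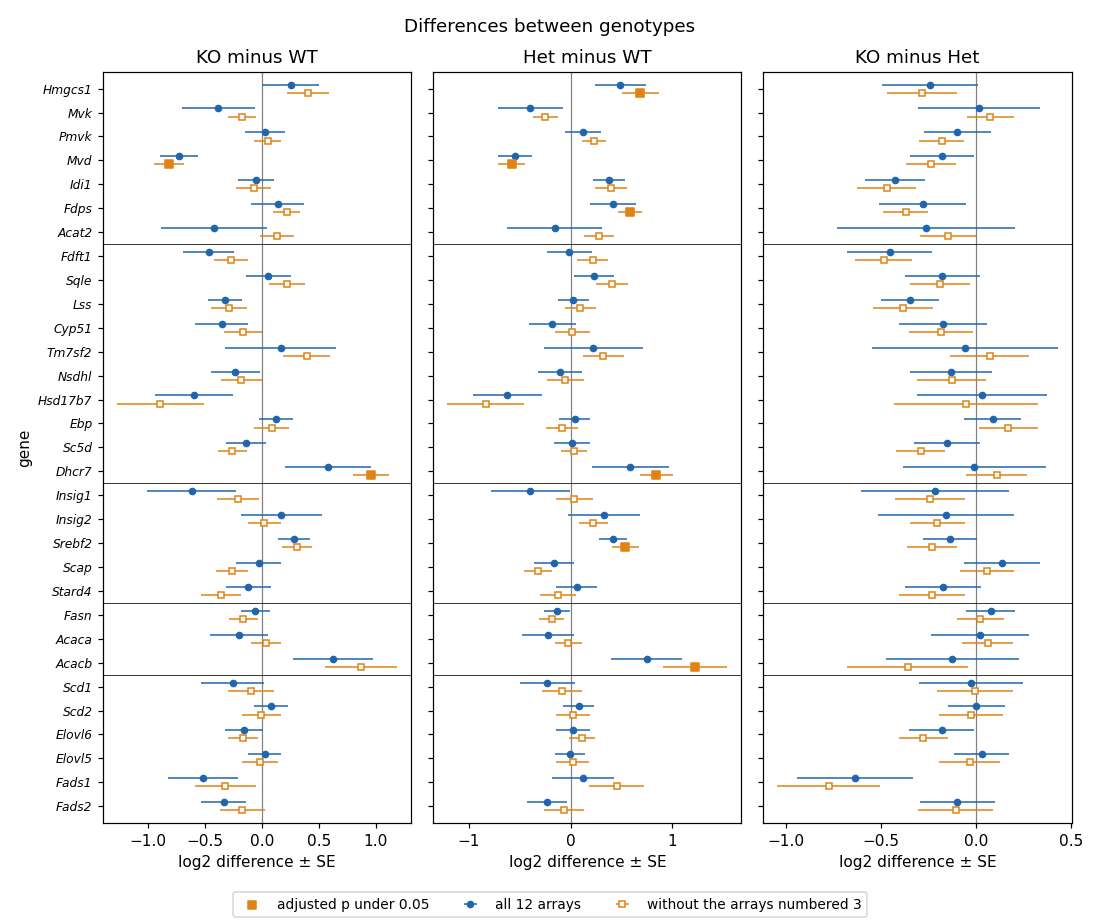
Log2 difference between genotypes for each of the 31 genes (points, with SE as bars), in groups by role, for KO minus WT, Het minus WT and KO minus Het. Circles use all 12 arrays and squares leave out the 3 arrays numbered 3, filled where the adjusted p is under 0.05: Mvd and Dhcr7 in KO minus WT, and 6 genes in Het minus WT.

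The mevalonate pathway holds 7 of the genes. Mvd, the decarboxylase that makes isopentenyl diphosphate, came nearest to a call. Its probe lies at chr8:121075855-121075914 (build mm7). Mvd stood at 2.12, 2.71, 2.19 and 2.18 in KO replicates 2, 3, 4 and 5, at 2.44, 2.73, 2.41 and 2.34 in Het replicates 2, 3, 4 and 5, and at 2.84, 2.91, 3.17 and 3.18 in WT replicates 1, 2, 3 and 5. Every KO and every Het array lay below every WT array, while KO and Het overlapped. KO cells averaged 2.30 ± 0.28, Het cells 2.48 ± 0.17 and WT cells 3.03 ± 0.18. The KO mean was 1.65-fold below the WT mean (−0.73, SE 0.17, limma adjusted p = 0.0574, exact two-sided permutation p = 0.0286, the smallest that 4 against 4 arrays allow). The Het mean was 1.46-fold below it (−0.55, SE 0.17, limma adjusted p = 0.142). The KO minus WT difference was −0.93 within slide 3 and −0.99 within slide 4, and −0.88 with slide as a block (limma adjusted p = 0.0925). Leaving out KO replicate 3 (limma adjusted p = 0.0157) or WT replicate 3 (limma adjusted p = 0.0365) took it past the threshold.

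The other 6 genes of the pathway act before and after Mvd, and in none of them did all KO and all Het arrays lie below the WT arrays. Idi1, the isomerase that acts on the product of Mvd, averaged 4.10 ± 0.24 in KO, 4.52 ± 0.10 in Het and 4.15 ± 0.20 in WT cells. Its 4 Het arrays lay above every KO and every WT array, with a Het minus WT difference of 0.38 (SE 0.16, limma adjusted p = 0.26) and a KO minus Het difference of −0.43 (limma adjusted p = 0.305). At the other Idi1 probe the genotypes overlapped, with a Het minus WT difference of 0.04 on all arrays and 0.35 without the arrays numbered 3. Hmgcs1, which makes HMG-CoA, averaged 5.05 ± 0.31 in KO, 5.29 ± 0.13 in Het and 4.80 ± 0.54 in WT cells. Fdps, which makes farnesyl diphosphate, averaged 5.15 ± 0.29 in KO, 5.43 ± 0.13 in Het and 5.01 ± 0.46 in WT cells. In both genes the Het mean was the highest, WT replicate 3 had the highest level of all arrays, and the genotypes overlapped. Acat2, the cytosolic thiolase that opens the pathway and has a near-identical neighbour, Acat3, that its probe may also read, and the kinases Mvk and Pmvk had KO minus WT differences of −0.42, −0.38 and 0.03, with SE 0.47, 0.32 and 0.18. Without the arrays numbered 3 these differences were 0.13, −0.18 and 0.05, so that of Acat2 had the opposite sign.

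The 10 enzymes from squalene to cholesterol gave no call. Hsd17b7, a sterol ketoreductase that also acts on oestrone, stood at 0.27, 1.10, 0.44 and 0.28 in KO replicates 2, 3, 4 and 5, at 0.06, 0.82, 0.19 and 0.90 in Het replicates 2, 3, 4 and 5, and at 2.13, 0.72, 0.81 and 0.80 in WT replicates 1, 2, 3 and 5. WT replicate 1 lay far above the rest, and the genotypes overlapped. The KO minus WT difference was −0.59 (SE 0.34, limma adjusted p = 0.422) and the Het minus WT difference −0.62 (SE 0.34, limma adjusted p = 0.389). At the second Hsd17b7 probe they were −0.80 (SE 0.24, limma adjusted p = 0.136) and −0.53 (SE 0.24, limma adjusted p = 0.313), and the genotypes overlapped. Dhcr7, which makes the last reduction to cholesterol, stood at 3.15, 3.51, 3.34 and 3.20 in KO replicates 2, 3, 4 and 5, at 3.41, 3.87, 2.98 and 2.99 in Het replicates 2, 3, 4 and 5, and at 2.40, 2.12, 4.04 and 2.31 in WT replicates 1, 2, 3 and 5. WT replicates 1, 2 and 5 lay below all KO and Het arrays and WT replicate 3 above all of them. With WT replicate 3 in the fit, the KO minus WT difference was 0.58 (SE 0.38, limma adjusted p = 0.485). Without it, the difference was 1.02 (limma adjusted p = 0.0165) and the Het minus WT difference 1.03 (limma adjusted p = 0.0187). Fdft1, squalene synthase, averaged 2.87 ± 0.12 in KO, 3.33 ± 0.11 in Het and 3.34 ± 0.52 in WT cells, and Lss, which closes the sterol rings, averaged 1.87 ± 0.16 in KO, 2.22 ± 0.05 in Het and 2.19 ± 0.26 in WT cells. In both genes every KO array lay below every Het array, with KO minus Het differences of −0.46 (SE 0.22, limma adjusted p = 0.482) for Fdft1 and −0.35 (SE 0.15, limma adjusted p = 0.421) for Lss. The other probes of both genes overlapped between KO and Het, with differences of 0.01 for Fdft1 and of −0.49 and −0.56 for Lss. The KO minus WT difference of Lss was −0.32 (SE 0.15) at the bright probe. It was −0.69 (SE 0.28, limma adjusted p = 0.243) and −0.80 (SE 0.29, limma adjusted p = 0.203) at the others. KO and WT overlapped at each. The epoxidase Sqle, the demethylating enzymes Cyp51 and Nsdhl, the reductase Tm7sf2, the isomerase Ebp and the desaturase Sc5d had KO minus WT differences between −0.35 (Cyp51) and 0.16 (Tm7sf2). Ebp was 4.56 ± 0.06 in KO and 4.43 ± 0.08 in WT cells, with no overlap and a difference of 0.13 (SE 0.15, limma adjusted p = 0.745).

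The 5 genes of sterol sensing and transport gave no call either. Insig1, itself a target of SREBP, stood at −0.62, −0.24, −0.81 and −0.24 in KO replicates 2, 3, 4 and 5, at −0.22, −0.10, −0.24 and −0.48 in Het replicates 2, 3, 4 and 5, and at −0.25, −0.58, 1.60 and −0.22 in WT replicates 1, 2, 3 and 5. WT replicate 3 lay above all other arrays, and the rest overlapped. The KO minus WT difference of −0.61 (SE 0.39, limma adjusted p = 0.479) was −0.21 (SE 0.18) without the arrays numbered 3. Srebf2, which encodes SREBP-2, averaged 5.29 ± 0.07 in KO, 5.42 ± 0.24 in Het and 5.00 ± 0.09 in WT cells. Every KO and Het array of Srebf2 lay above every WT array, with differences of 0.28 (SE 0.14, limma adjusted p = 0.348) for KO minus WT and 0.42 (SE 0.14, limma adjusted p = 0.173) for Het minus WT. The other 3 Srebf2 probes gave Het minus WT differences of 0.02 to 0.09 and KO minus WT differences of −0.30 to 0.13, and overlapped between genotypes. Without the arrays numbered 3 these 3 probes gave Het minus WT differences of 0.19 to 0.69 and KO minus WT differences of 0.09 to 0.26, all in the direction of the bright probe, and none was called. Insig2, Scap and Stard4, which moves cholesterol between membranes, had KO minus WT differences of 0.17, −0.03 and −0.12, with SE 0.36, 0.20 and 0.20.

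Of the 3 genes of fatty acid synthesis, Acacb had the largest differences. It encodes the acetyl-CoA carboxylase of the mitochondrial surface. Acacb stood at −2.43, −2.26, −2.30 and −2.24 in KO replicates 2, 3, 4 and 5, at −1.15, −2.84, −2.22 and −2.53 in Het replicates 2, 3, 4 and 5, and at −3.37, −3.23, −2.15 and −2.99 in WT replicates 1, 2, 3 and 5. WT replicates 1, 2 and 5 lay below all KO and Het arrays, and Het replicate 2 lay above all others. The differences were 0.62 (SE 0.35, limma adjusted p = 0.409) for KO minus WT and 0.75 (SE 0.35, limma adjusted p = 0.314) for Het minus WT. Acaca, the cytosolic carboxylase, averaged −0.24 ± 0.18 in KO, −0.26 ± 0.19 in Het and −0.04 ± 0.59 in WT cells. Fasn, fatty acid synthase, averaged 6.20 ± 0.14 in KO, 6.12 ± 0.09 in Het and 6.25 ± 0.12 in WT cells, and its KO minus WT difference was −0.06 (SE 0.13, limma adjusted p = 0.885). Its Het minus WT difference was −0.13 (SE 0.13) at this probe and −0.53 (SE 0.19, limma adjusted p = 0.201) at the second. At the second probe the KO minus WT difference was −0.27 (SE 0.19), and the genotypes overlapped. Without the arrays numbered 3, the second probe gave a Het minus WT difference of −0.50 (limma adjusted p = 0.0591).

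The 6 genes of desaturation and elongation were led by Fads1, the front-end desaturase of polyunsaturated fatty acids. Fads1 stood at 2.75, 2.87, 2.29 and 2.51 in KO replicates 2, 3, 4 and 5, at 3.69, 3.10, 3.32 and 2.87 in Het replicates 2, 3, 4 and 5, and at 2.51, 2.69, 3.98 and 3.30 in WT replicates 1, 2, 3 and 5. KO arrays lay at the low end, but 1 Het array and 2 WT arrays lay within their range. The KO minus Het difference was −0.64 (SE 0.31, limma adjusted p = 0.473, exact two-sided permutation p = 0.0571) and the KO minus WT difference −0.52 (SE 0.31, limma adjusted p = 0.437). Without the arrays numbered 3 these were −0.78 and −0.32 (SE 0.27). Its neighbour Fads2 averaged 2.38 ± 0.18 in KO, 2.48 ± 0.18 in Het and 2.72 ± 0.38 in WT cells. The stearoyl-CoA desaturases Scd1 and Scd2, which are close paralogues, and the elongases Elovl5 and Elovl6 had KO minus WT differences of −0.26, 0.08, 0.02 and −0.16, with SE 0.27, 0.15, 0.15 and 0.17.

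**Figure D2:**
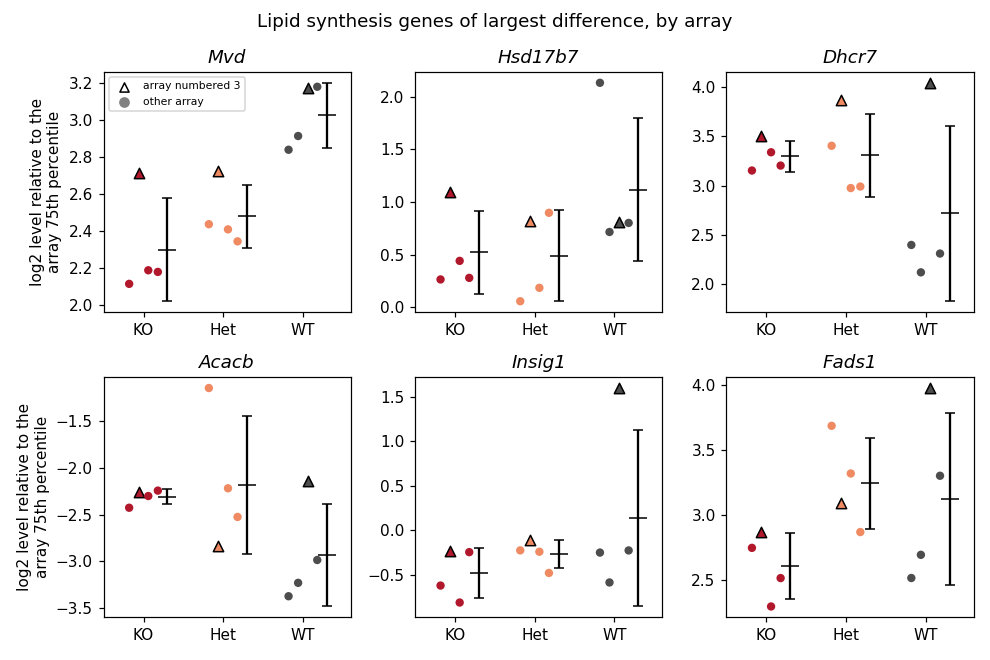
Log2 level relative to the array's 75th percentile in KO, Het and WT cells, 1 point per array (triangles, arrays numbered 3) with mean and SD beside them, for the 6 genes of largest difference between genotypes. In Mvd all KO and Het points lie below the WT points, and in Dhcr7 WT replicate 3, at 4.04, lies above every other array.

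Genotypes that did not overlap on any array were about as frequent here as over all features. For KO against WT there were 3 such genes of 31 (Mvd, Ebp and Srebf2), where 8.85% of all features did not overlap. For Het against WT there were 3 (Mvd, Idi1 and Srebf2), against 9.33% of all features, and for KO against Het there were 3 (Idi1, Fdft1 and Lss), against 10.6% of all features.

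Many of the 31 genes stood apart on the arrays numbered 3. The array numbered 3 lay above every other array of its genotype, in all 3 genotypes, for 15 of the 31 genes, against 7.24% of all features. It lay below in all 3 genotypes for 1 gene, Insig2, against 8.96% of all features. The 15 genes were 6 of the 7 genes of the mevalonate pathway (Acat2, Hmgcs1, Mvk, Pmvk, Idi1 and Fdps), 5 of the 10 from squalene to cholesterol (Cyp51, Tm7sf2, Nsdhl, Sc5d and Dhcr7), and Insig1, Acaca, Scd1 and Elovl6. KO replicate 3 was the highest KO array for 26 of the 31 genes, Het replicate 3 the highest Het array for 18 and WT replicate 3 the highest WT array for 21, against 32.2%, 30.2% and 28.8% of all features. WT replicate 3 was the highest of all 12 arrays for 18 of the 31 genes, against 13.4% of all features.

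The size of the shift differed between genes and was most often largest in WT cells. The median over the 31 genes of the array numbered 3 minus the mean of the other 3 arrays was 0.27 in KO, 0.16 in Het and 0.62 in WT cells. In 12 of the 15 genes the WT shift exceeded both others. Tm7sf2, a sterol reductase, had shifts of 0.93 in KO, 1.46 in Het and 1.85 in WT cells. It stood at 1.92, 2.96, 2.10 and 2.08 in KO replicates 2, 3, 4 and 5, at 2.22, 3.42, 1.79 and 1.87 in Het replicates 2, 3, 4 and 5, and at 1.84, 1.21, 3.49 and 1.86 in WT replicates 1, 2, 3 and 5. The 3 arrays numbered 3 were thus the highest 3 of the 12 for this gene, and the mean shift was 2.67-fold. Acat2 had shifts of 0.18 in KO, 0.65 in Het and 2.39 in WT cells, and Mvk shifts of 0.53, 0.78 and 1.36 in the same order. Insig2, a sterol-dependent brake on SREBP that is not itself an SREBP target, ran the other way, with shifts of −0.78 in KO, −0.95 in Het and −1.37 in WT cells. Insig2 stood at 2.10, 1.56, 2.51 and 2.39 in KO replicates 2, 3, 4 and 5, at 2.56, 1.58, 2.61 and 2.44 in Het replicates 2, 3, 4 and 5, and at 2.18, 2.38, 0.94 and 2.37 in WT replicates 1, 2, 3 and 5. Its arrays numbered 3 were the lowest 3 of the 12. Tm7sf2 and Insig2 are shown array by array because their mean shifts were the largest upward and the largest downward, chosen after their values were seen. The arrays numbered 3 were not all on 1 slide: KO and Het replicate 3 lay on slide 1 and WT replicate 3 on slide 3. The part of slide, sex or culture in these shifts was not tested.

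**Figure D3:**
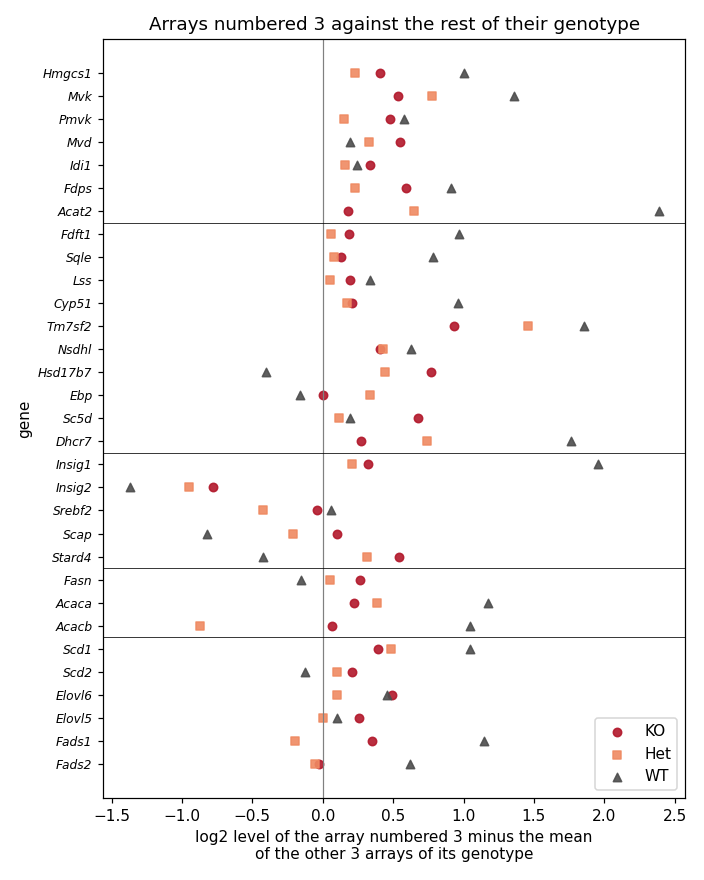
Log2 level of the array numbered 3 minus the mean of the other 3 arrays of its genotype, for each of the 31 genes, in KO (circles), Het (squares) and WT (triangles). Points right of 0 mean a higher level on the array numbered 3: 15 genes lie beyond their genotype's other arrays on that side in all 3 genotypes, and Insig2 lies left of 0 in all 3.

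Probes of the same gene differed in how far WT replicate 3 lay from the mean of the other WT arrays. Of the 19 genes with several tested probes, 14 had another probe whose WT shift was larger in size, up or down, than that of the bright probe that stands for the gene. Hmgcs1 had WT shifts of 1.00 at its bright probe and 2.35 and 2.87 at the other probes. Dhcr7 had 1.77 and 3.48, Fdps 0.91 and 2.07, and Srebf2 0.06 at its bright probe and 0.23 to 1.99 at the others. In the other 5 genes the bright probe shifted furthest. These were Mvk (1.36 at the bright probe and 1.06 at the other), Insig1 (1.95 and 1.82), Insig2 (−1.37 and −0.89), Hsd17b7 (−0.41 and 0.27) and Stard4 (−0.42 at the bright probe and 0.23 to 0.31 at the others). At the bright Hsd17b7 probe WT replicate 3, at 0.81, lay within the other WT arrays, and WT replicate 1 stood at 2.13. At the second Fdps probe WT replicate 1 stood low, at −2.17, against 0.58 and 0.52 in WT replicates 2 and 5. Both shifts thus also carry the level of WT replicate 1.

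Levels of most of the 31 genes followed one another over the 12 arrays. The median Pearson correlation over their 465 pairs was 0.30, against 0.04 between other features, and pairs ran from −0.94 (Mvk with Insig2) to 0.95 (Acaca with Acat2). These correlations rest on 12 arrays that include the 3 arrays numbered 3, share the scaling of each array and carry no test. Correlated with the median of the other 30 genes, Cyp51 gave 0.87, Acat2 0.86, Elovl6 0.86, Scd1 0.84 and Tm7sf2 0.83. Insig2 (−0.79) and Scap (−0.60) ran opposite, and Fasn, Ebp, Srebf2, Hsd17b7 and Stard4 lay between −0.08 and 0.00.

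**Figure D4:**
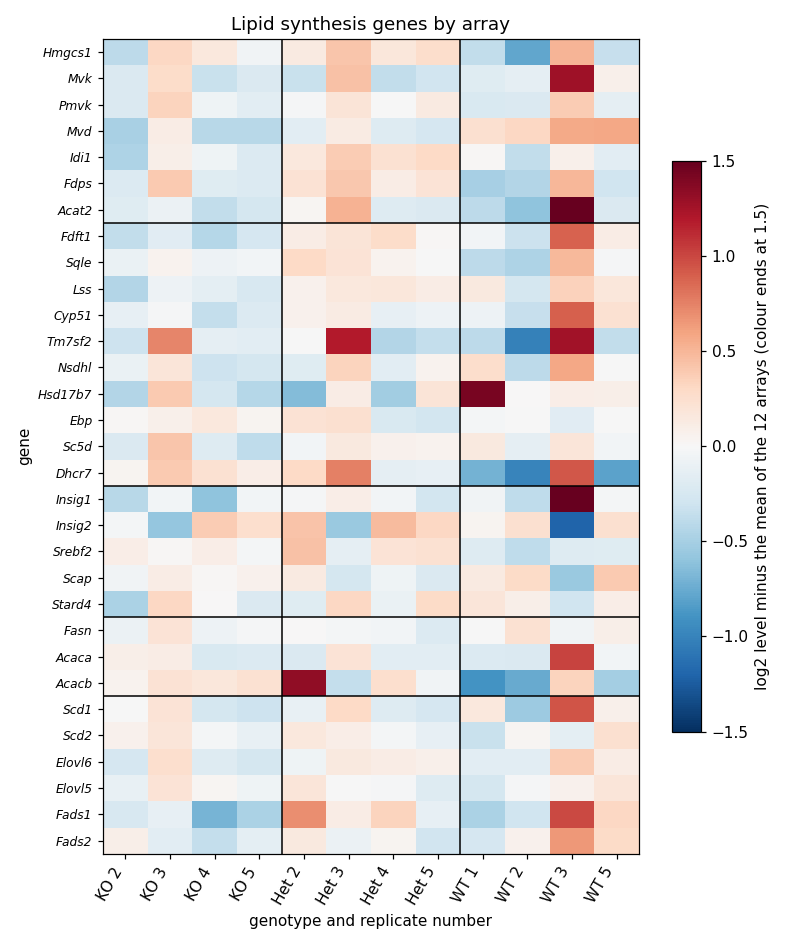
Log2 level minus the mean of the 12 arrays for each of the 31 genes (down the page, grouped by role with black lines) on each array (KO, Het and WT from left to right). The columns of replicate 3, above all WT 3, are red for most genes, and the row of Insig2 is blue there.

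Without the arrays numbered 3, 3 arrays remained per genotype and some of the genes passed the test, on a background of many more calls. For KO against WT, 2 of the 31 genes were called, where 17.1% of 17653 features were. Mvd was lower in KO cells (−0.82, SE 0.13, limma adjusted p = 0.00425) and Dhcr7 was higher (0.95, SE 0.16, limma adjusted p = 0.00505). For Het against WT, 6 were called, where 12.2% of all features were. Hmgcs1 (0.69), Fdps (0.59), Dhcr7 (0.85), Srebf2 (0.54) and Acacb (1.23) were higher in Het cells and Mvd (−0.58) was lower, with limma adjusted p from 0.0116 (Dhcr7) to 0.0457 (Hmgcs1). For KO against Het, 0 of the 31 were called in limma, where 9.11% of all features were, and 5 had an unadjusted p under 0.05 (22.5% of all features). At that unadjusted threshold there were 5 for KO against WT (31.5% of all features) and 8 for Het against WT (26.8%). The sign of the difference turned in 4 genes for KO minus WT (Acaca, Acat2, Elovl5 and Scd2), in 7 for Het minus WT and in 5 for KO minus Het, none of them called. The median over the 31 genes was −0.09 for KO minus WT, 0.04 for Het minus WT and −0.18 for KO minus Het. In separate fits of all probes without these arrays, both Dhcr7 probes were called in KO minus WT (1.02 at the second, limma adjusted p = 0.01) and in Het minus WT (0.79, limma adjusted p = 0.0373). The second Hsd17b7 probe was called in KO minus WT (−0.90, limma adjusted p = 0.0259). In these fits 4133 of 26805 probes were called for KO minus WT and 2739 for Het minus WT. In Het minus WT no other probe of Hmgcs1, Fdps or Srebf2 was called, and the bright Hmgcs1 probe itself had limma adjusted p = 0.0517. With WT replicate 3 alone left out, the calls for KO against WT were Mvd and Dhcr7 (10.2% of all features), and those for Het against WT were Hmgcs1 (0.74), Fdps (0.65) and Dhcr7 (8.69% of all features).

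Genes linked to the same route but outside the 31 gave no call. Of 21 further SREBP-linked lipid genes on the array, 19 were tested. In KO cells 8 were higher and 11 lower than in WT cells, with a median of −0.05 and 0 called (3 at an unadjusted p under 0.05). In Het cells 8 were higher and 11 lower than in WT cells, with a median of −0.01 and 0 called (1 at an unadjusted p under 0.05). In KO cells 12 were higher and 7 lower than in Het cells, with a median of 0.04 and 0 called (1 at an unadjusted p under 0.05). Of all features, 16.5%, 16.3% and 11.2% had an unadjusted p under 0.05 in these 3 comparisons, in the same order. Calls were made for 1.64%, 1.18% and 0.997% of all features, and the medians over all features were 0.08, 0.08 and −0.02. Their largest KO minus WT differences were those of Lpin1, a phosphatidate phosphatase (−0.67, SE 0.33, limma adjusted p = 0.332), Acsl3, an acyl-CoA synthetase (0.67, SE 0.20, limma adjusted p = 0.126), and Dhdds, which makes dolichol precursors (0.51, SE 0.16, limma adjusted p = 0.146). Of 14 genes of oxysterol sensing by LXR, cholesterol efflux and esterification, 13 were tested. None was called in limma, with 1, 2 and 1 at an unadjusted p under 0.05 for KO minus WT, Het minus WT and KO minus Het. The medians of the 3 differences were 0.01, 0.12 and −0.27. The shares and medians over all features are those given above for the SREBP-linked genes. Abca1, the cholesterol exporter, averaged −1.23 ± 0.20 in KO, −2.89 ± 0.76 in Het and −2.21 ± 1.19 in WT cells, with a KO minus WT difference of 0.98 (SE 0.53, limma adjusted p = 0.392). Its KO minus Het difference was 1.66 (SE 0.53, limma adjusted p = 0.224, exact two-sided permutation p = 0.0286). Abca1 was the 1 gene of the 13 without overlap between KO and Het, against 10.6% of all features. Lcat, which esterifies plasma cholesterol, and Mylip, which targets lipoprotein receptors for degradation, had KO minus WT differences of −0.92 (SE 0.35) and 0.51 (SE 0.49).

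Some cell type markers did differ between the same samples, and members of 1 list moved in both directions. Of all features, 1.64% were called for KO against WT, 1.18% for Het against WT and 0.997% for KO against Het. Of 10 fibroblast markers, 4 were higher and 6 lower in KO than in WT cells, and 1 of them, the surface marker Thy1, was called (−3.47, limma adjusted p = 0.00167). In Het cells 9 were higher and 1 lower than in WT cells, with 0 called in limma and 3 at an unadjusted p under 0.05 (16.3% of all features). In KO cells 2 were higher and 8 lower than in Het cells, and Thy1 (−2.16) and the proteoglycan gene Dcn (−3.21) were called. Of 7 epithelial or mesothelial markers, 5 were higher and 2 lower in KO than in WT cells, and Epcam was called (1.59, limma adjusted p = 0.0462), while Upk3b (−2.50) and Krt19 (−1.62) had lower means and were not called. In Het cells 5 were again higher and 2 lower than in WT cells, with the keratin Krt8 called higher (3.36, limma adjusted p = 0.0383) and the mesothelial Upk3b lower (−3.15, limma adjusted p = 0.0409). The summed signal of this list was 12.4 to 35.6 in KO, 9.41 to 22.9 in Het and 3.28 to 65.8 in WT cells, which overlapped. Of 4 tested smooth muscle markers, 0 were higher and 4 lower in Het than in WT cells and 4 were higher in KO than in Het cells, with Cnn1 called in each (−3.72, limma adjusted p = 0.0181, and 2.90). Adipocytes are a lipid-making cell type, and 4 of 10 adipocyte markers were tested, with 0 called in limma. All 4 had a higher mean in Het than in WT cells, with a median of 0.83: Cebpa (2.75) and Pparg (0.86) did not overlap between them, and Slc2a4 (0.80) and Fabp4 (0.34) did. In KO cells 3 had a higher and 1 a lower mean than in WT cells, with Slc2a4 at 2.09 (limma adjusted p = 0.111) and the other 3 within 0.18 of 0. In KO cells 1 had a higher and 3 a lower mean than in Het cells, with a median of −0.51. Cebpa (−2.70) did not overlap between KO and Het, and Pparg (−0.86), Fabp4 (−0.16) and Slc2a4 (1.29) did. At an unadjusted p under 0.05 there were 2 of the 4 for Het against WT (16.3% of all features). There were 1 for KO against WT (16.5%) and 2 for KO against Het (11.2%). The summed signal of the 10 adipocyte markers was 1.23 to 8.84 in KO, 1.78 to 4.67 in Het and 1.28 to 1.68 in WT cells, and Adipoq, Plin1, Cidec, Cfd, Lep and Retn were not well above background on all arrays of any genotype. The part of these markers in the lipid gene values was not tested.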

How the data were processed

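Per the file headers and the submitters' processing notes, the authors extracted the arrays with Agilent Feature Extraction 9.5. The deposited spot data hold a linear-scale intensity (the processed signal), background-subtracted and unscaled between arrays, and the deposited series table holds the same values. Each array had 43379 non-control spots. The number of arrays and the spread between them set the precision. Spots marked as outliers were left out, and spots of 1 probe were averaged. Levels are log2 signals minus the array's 75th percentile, computed here from the deposited intensity. The brightest probe stood for a gene.

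Genotypes were compared in 1 fit with limma 3.58.1 (R 4.3.3), without slide or replicate terms, adjusted by Benjamini-Hochberg over 16845 features and called under 0.05. Values of the Sirt1 probes and of further probes of a gene came from a separate fit of all detected probes, adjusted over those probes. Exact permutation tests compared single genes. The limma step was tested on simulated data. Alternatives covered scaling, background correction, filter, probe choice, slide, replicate number, array weights and left-out arrays. Leaving out slide 4 was added after seeing the data. The members and lists were chosen with earlier results of these data known. Every member is named. Values on every array are given for the 6 genes of largest difference, and of the other lists called genes and the 3 of largest KO minus WT difference are named. Probe positions are those of the array files (mm7), and promoters are RefSeq's (GRCm38.p6). Python 3.11.15 with matplotlib 3.10.9 drew the figures.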

Additional observations from a re-analysis of the deposited data

Results flagged for a closer look

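In 15 of 93 sets of 4 arrays (31 genes in 3 genotypes), 1 array lay so far from the others that its gap to the nearest array, divided by the range, passed Dixon's critical value for 4 values. Chance alone gives about 1 set in 20 when sets are independent. These sets share the same arrays, and levels of most of the genes followed one another, so that rate is only a rough guide. In 13 of the 15 the array was the one numbered 3. The arrays numbered 3 stood apart across all tested features too. The share of flagged sets over all features was not computed, so the count cannot be read as particular to these genes.

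KO replicate 3 stood apart in 2.71 for Mvd, next to 2.19 (ratio 0.877), 5.59 for Fdps, next to 5.01 (ratio 0.967) and 3.41 for Elovl6, next to 2.97 (ratio 0.862). Het replicate 3 stood apart in 1.86 for Mvk, next to 1.13 (ratio 0.888), 0.03 for Acaca, next to −0.33 (ratio 0.859) and, below the others, 1.58 for Insig2, next to 2.44 (ratio 0.837).

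WT replicate 3 stood above the other WT arrays in 4.40 for Pmvk, next to 3.88 (ratio 0.852), 4.04 for Dhcr7, next to 2.40 (ratio 0.856), 1.60 for Insig1, next to −0.22 (ratio 0.835), 0.84 for Acaca, next to −0.22 (ratio 0.864) and 0.78 for Acat2, next to −1.42 (ratio 0.849). It stood below them in 4.31 for Ebp, next to 4.46 (ratio 0.892) and 0.94 for Insig2, next to 2.18 (ratio 0.864).

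The remaining sets were Hsd17b7, where WT replicate 1 stood at 2.13, next to 0.81 (ratio 0.933), and Srebf2, where WT replicate 2 stood at 4.86, next to 5.05 (ratio 0.945). What set these arrays apart was not tested.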

How the results depend on the processing

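The count of 31 genes called for KO against WT was 0 as reported, and 1 with median centring (1.59% of all features), 1 with a term for the arrays numbered 3 (4.31%), 2 without those arrays (17.1%) and 11 with array weights (39.8% of all features called). For Het against WT it was 0 as reported, and 1 with that term (3.4% of all features), 6 without those arrays (12.2%) and 8 with array weights (19.9% of all features called). For KO against Het it was 0, and 7 with array weights (33.7% of all features called). The replicate block called 0 in each comparison, as did the slide block. For KO minus WT, Het minus WT and KO minus Het, the replicate block called 0.671%, 0.511% and 0.896% of all features. The slide block called 0.338%, 0.243% and 0.469% of all features, in the same order. With the replicate block Mvd had a KO minus WT difference of −0.76 (limma adjusted p = 0.11). Replicate numbers were shared by 10 pairs of arrays, of which 5 had deviations correlated above 0.1. These 10 correlations ran from −0.04 to 0.43, with 0.22 to 0.43 in the 3 pairs numbered 3. Those of the 38 other pairs ran from −0.45 to 0.39, so the count does not show that numbers mark pairs. Leaving out 1 array at a time gave 0 to 2 calls for KO against WT, 0 to 3 for Het against WT and 0 each time for KO against Het. The medians over the genes were −0.25 to −0.03, −0.04 to 0.07 and −0.22 to −0.10, in the same order. The highest counts, 2 and 3, came without WT replicate 3, where 10.2% and 8.69% of all features were called. In that fit 1.92% of all features were called for KO against Het. Without KO replicate 3, 1 gene was called for KO against WT (2.97% of all features).

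The median for KO minus Het was 0.12 on unscaled signals, where the median of all features was 0.23, and 0.10 within slide 1. Without scaling, the medians of all features were 0.09 for KO minus WT and −0.15 for Het minus WT. Of 2728 values of single genes under 30 other settings, 43 passed the threshold, 257 had the opposite sign to the reported difference, and 0 did both. The cause of the added calls was not tested. All 31 genes were well above background on all arrays. The median SE of the 31 genes was 0.22 on all arrays and 0.16 without the arrays numbered 3, and 24 genes then had a smaller SE.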
